A study of Mus musculus with 8 samples.

Results

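The Fyn and Traf3ip2 acetylation domain is a stretch of mouse chromosome 10 between 39.00 and 39.45 Mb (mm9) in which 18 of the 22731 H3K27ac peaks of the series lie. Its members are all peaks of the deposited count table that overlap this window. By the approximate gene positions that define it, Fyn runs from 39.09 to 39.29 Mb and Traf3ip2 from 39.33 to 39.38 Mb. The peaks are numbered 1 to 18 here in the order of their positions: peaks 1 to 13 overlap the Fyn interval and peaks 14 to 18 the Traf3ip2 interval. The window was chosen by the measured fold changes of its peaks between Gata6 knockout and control organoids, so these differences are given as a description. The fit over all peaks also calls members higher or not, and these calls are reported as counts that support nothing, without p-values.

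H3K27ac was profiled by CUT&RUN: a nuclease tethered to an antibody cuts around the marked nucleosomes, and the released fragments are sequenced. The organoids are mouse colon cancer organoids named AKP in the labels, which give the recipient mice as C57Bl6 and spell out no alleles. The compared groups were 3 H3K27ac libraries from organoids of genotype Gata6KO_AKP and 3 from control organoids of genotype AKP. By these labels both groups carry the AKP background and differ by the loss of Gata6. Whether they differ in other ways as well cannot be known from the labels. The 8 samples of the series also include 1 H3K4me3 and 1 IgG library from control organoids, not analysed here. The labels do not say whether the libraries of a group came from separate cultures or how many knockout clones were used, so the spread between them may be technical.

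H3K27ac marks active promoters and enhancers, and domains with many neighbouring acetylated peaks are common at genes that a cell uses strongly. GATA6 is a zinc finger transcription factor of the gut epithelium. Fyn encodes a Src family tyrosine kinase that sits at the inner face of the plasma membrane and phosphorylates proteins of cell adhesion, cytoskeletal and immune receptor signalling. Traf3ip2 encodes Act1, the adaptor that binds the receptors of the IL-17 cytokines and passes their signal on through TRAF6, a route by which gut epithelium responds to immune cells. In the RefSeq gene table of another assembly, GRCm38.p6, Fyn is 195639 bp long and Traf3ip2 42374 bp, and the long noncoding RNA Gm16364 overlaps both. Another noncoding RNA, Gm40627, lies between them, and E130307A14Rik overlaps Traf3ip2, so acetylation in either interval cannot be given to one transcript alone.

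Peak 1 spans the approximate start of Fyn, so the RefSeq promoter of the gene is shown for the letters a GATA factor reads. It holds 250 bases before and 50 after a RefSeq start, at chr10:39369549-39369848 on the plus strand of GRCm38.p6, whose positions cannot be compared with the mm9 positions used elsewhere. Capitals mark the only match to GATA on either strand.
Fyn promoter: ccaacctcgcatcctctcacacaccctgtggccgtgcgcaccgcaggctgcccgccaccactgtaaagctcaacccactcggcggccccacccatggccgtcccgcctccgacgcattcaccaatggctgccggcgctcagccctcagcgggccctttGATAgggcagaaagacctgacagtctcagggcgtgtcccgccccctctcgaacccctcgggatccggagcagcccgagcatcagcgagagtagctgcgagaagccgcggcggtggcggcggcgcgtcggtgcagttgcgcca
The match begins 92 bases before the start. With the base on either side, this match reads TGATAG, 1 of 4 longer forms searched, all of which contain GATA. Of these, AGATAA and TGATAA were planned, while AGATAG and TGATAG were added after seeing the data. The forms AGATAA and TGATAA, and likewise the form AGATAG, were not found in this window on either strand. Of 32851 RefSeq promoter windows of the same length, 57.9% held GATA, 29.8% held at least 1 of the 4 longer forms and 18.6% held AGATAA or TGATAA. The window is rich in G and C, at 69% against a median of 52.7% over all promoters, and holds 31 CpG dinucleotides against a median of 7.

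Acetylation was higher in knockout than in control organoids at each of the 13 Fyn peaks, which cover 16.1% of the interval, while the Traf3ip2 peaks differed less and unevenly. The summed level of the 13 Fyn peaks was 421, 398 and 379 CPM (reads of a peak scaled to a common library total) in knockout libraries 1 to 3, against 181, 160.1 and 155 CPM in control libraries 1 to 3. Its mean was 399 ± 21.3 CPM in the knockout and 165 ± 13.5 CPM in the control (SD, n = 3 each), a ratio of 2.41. The groups lay far apart, since the lowest knockout sum was more than double the highest control sum. The summed level of the 5 Traf3ip2 peaks was 489.9, 479 and 476 CPM in knockout libraries, against 419, 391.6 and 411 CPM in control libraries. Its means were 481 ± 7.53 and 407 ± 14.0 CPM (SD, n = 3 each), a ratio of 1.18, and the groups did not overlap here either. Each library pools many cells, so a mark present in more cells and more of the mark per cell cannot be told apart. Of the increase in the summed level of the domain, 75.9% fell in the Fyn interval.

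**Figure D1:**
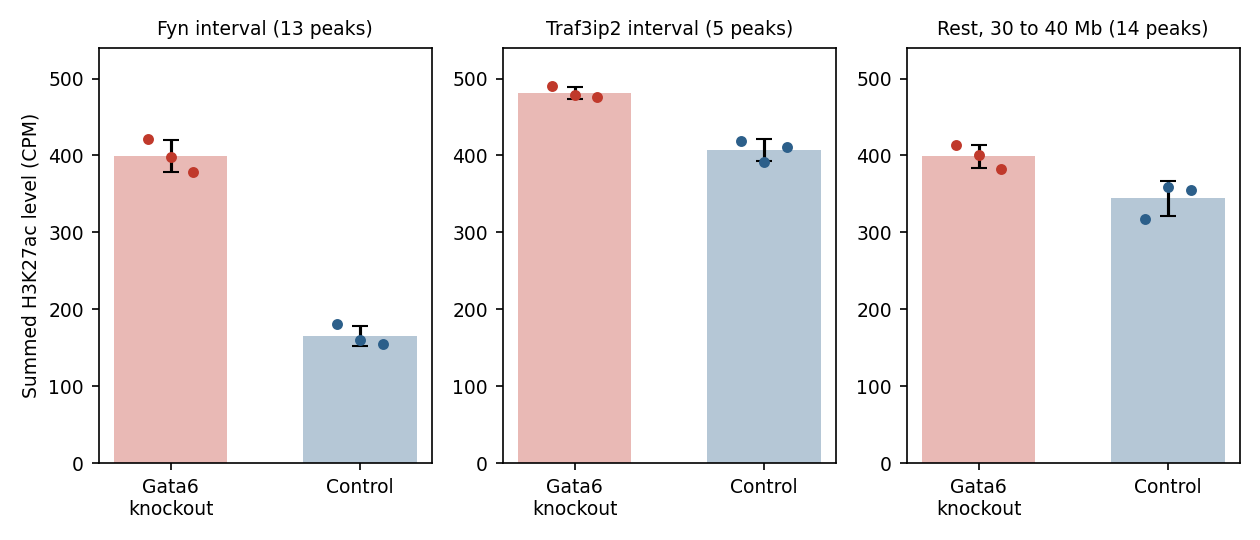
Summed H3K27ac level in CPM (y axis) in Gata6 knockout and control libraries for the Fyn interval, the Traf3ip2 interval and the other peaks of chromosome 10 from 30 to 40 Mb; bars are means of 3 libraries, error bars SD and points single libraries. The Fyn sums are 379 to 421 CPM in the knockout and 155 to 181 CPM in the control, while the other 2 panels differ by ratios of 1.18 and 1.16.

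Of the 18 peaks, 15 were called higher in the knockout and 0 lower by edgeR's quasi-likelihood test (adjusted p under 0.05 over all 22731 peaks). Over the whole set of peaks, 11.6% were called higher and 10.2% lower. Among the 20868 peaks off chromosome 5 these shares were 12.3% and 8.1%. Lower calls were thus more frequent on chromosome 5, and the cause was not tested. Since this contrast chose the window, nothing is read from the members' count. In the same 15 peaks all 3 knockout libraries lay above all 3 control libraries, as they did in 17.5% of all peaks. The median log2 fold change over the domain was 1.10, against -0.01 over all peaks. A fitted fold of at least 2 was reached by 11 members, all in the Fyn interval, and by 2.52% of all peaks. A fold of at least 1.5 was reached by 14 members and by 7.58% of all peaks.

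The peak at the approximate start of Fyn, peak 1 (39089448 to 39091111), was one of the weakest of the domain. It measured 21.4, 14.1 and 19.6 CPM in knockout libraries 1 to 3, against 4.87, 7.79 and 10.0 CPM in control libraries 1 to 3. The groups did not overlap, although control library 3 came close to knockout library 2. Its log2 fold change was 1.27 ± 0.30 (SE), and control library 1, the lowest of the 3, held only 28 reads there. The next 76.4 kb held no peak. Peak 2 (39167506 to 39172348), the widest of the Fyn interval at 4843 bp, then measured 78.7, 67.1 and 65.9 CPM in the knockout, against 41.7, 26.9 and 22.9 CPM in the control. Control library 1 stood above the other 2 controls, and the log2 fold change was 1.22 ± 0.13 (SE).

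The largest fold changes lay in the middle of the Fyn interval, 115 to 148 kb from the centre of peak 1. Peak 4 (39203905 to 39206047) measured 28.9, 29.0 and 23.7 CPM in knockout libraries, against 8.70, 8.18 and 8.02 CPM in control libraries, a fitted fold of 3.27. Its neighbour peak 5 (39206711 to 39211472), only 663 bp further on, measured 70.3, 82.2 and 61.9 CPM in the knockout, against 25.0, 18.7 and 23.9 CPM in the control, a fitted fold of 3.15. These were the only members whose fitted fold reached 3. In the knockout, peak 5 was as high as peak 2, at means of 71.5 ± 10.2 and 70.6 ± 7.06 CPM (SD, n = 3 each). Peak 6 (39220910 to 39222673) measured 22.6, 20.3 and 19.9 CPM in the knockout, against 7.65, 7.79 and 7.45 CPM in the control. Peak 7 (39237090 to 39238550) measured 21.6, 17.8 and 21.5 CPM in the knockout, against 9.39, 7.98 and 6.59 CPM in the control. In these 4 peaks the knockout libraries were well apart from the controls. The log2 fold changes of peaks 6 and 7, at 1.46 ± 0.28 and 1.35 ± 0.28 (SE), were within error of that of peak 1. Without control library 3, peak 1 had 1.54, above the 1.44 and 1.22 of peaks 6 and 7. Only peaks 4 and 5 thus stood out by position.

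From peak 4 to peak 10 each fitted fold was below the one before, ending at 1.97, but no step exceeded the summed standard errors of its 2 peaks. The remaining Fyn members, peaks 3 and 8 to 13, had fitted folds of 1.96 to 2.30. Their mean levels were 15.7 to 43.1 CPM in the knockout and 7.59 to 21.9 CPM in the control. Several lie so close together that they may be parts of one acetylated stretch: 35 bp separate peaks 10 and 11, and 998 bp separate peaks 8 and 9. The weakest calls were those of peaks 3 and 12. The call of peak 3 was lost without control library 1, that of peak 12 without control library 2, and both with scaling that varied with the mean count.

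**Figure D2:**
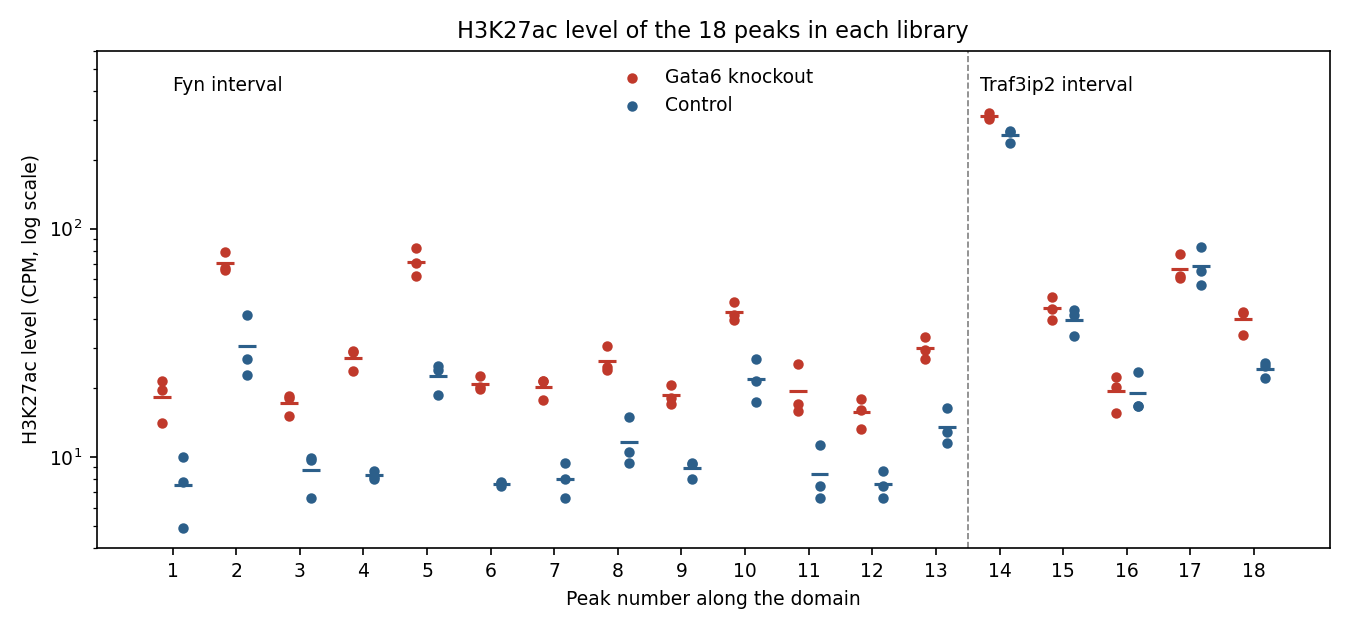
H3K27ac level in CPM (y axis, log scale) of each of the 18 peaks (x axis) in the 3 Gata6 knockout and 3 control libraries; points are libraries and short lines means. Knockout points lie above all control points in peaks 1 to 14 and 18, and the groups overlap in peaks 15, 16 and 17.

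The control level at Fyn was among the lowest of the table once peak width was taken into account. The level per kb of the 13 Fyn peaks was 9.79 to 17.1 CPM per kb in the knockout and 3.87 to 8.72 CPM per kb in the control. The median over all peaks was 10.7 CPM per kb in each group. In the knockout 9 of the 13 Fyn peaks reached that median, and in the control 0 of 13 did. Choosing the window by its fold changes favours this contrast. The peak set is common to both groups, and whether the Fyn peaks were also called in the control libraries is not known. The lowest control level per kb was that of peak 4, the peak with the largest fold, at 3.87 CPM per kb against 12.7 CPM per kb in the knockout. The highest was that of peak 3, the narrowest member at 1005 bp. Across the 13 Fyn peaks, the log2 fold change fell with the log2 control level per kb (Pearson's r = -0.57, Spearman's rho = -0.62). It also fell over all 22731 peaks (Pearson's r = -0.53, Spearman's rho = -0.43), so this relation is not particular to Fyn. With the log2 control level not divided by width, the Fyn peaks showed little relation (Pearson's r = -0.0064, Spearman's rho = -0.16). Over all peaks these values were -0.34 and -0.35. The control level enters both measures and the peaks share their libraries, so these values are descriptions only.

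**Figure D3:**
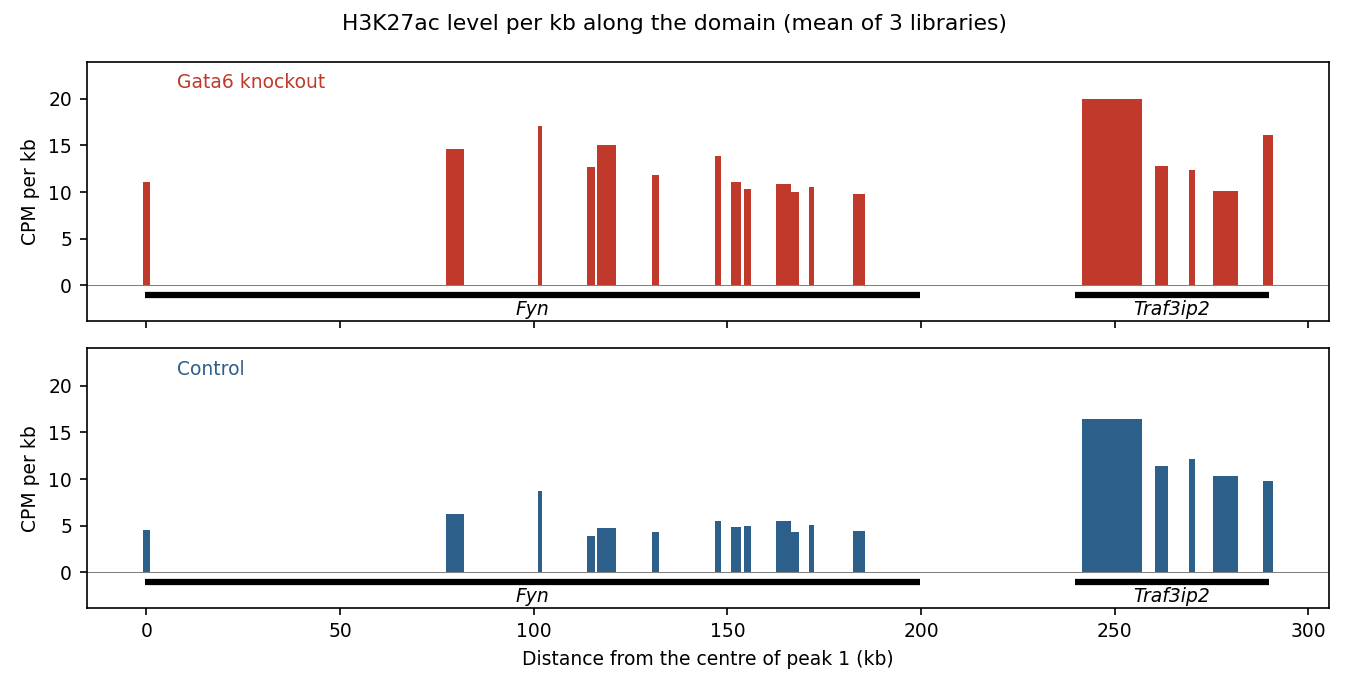
Mean H3K27ac level per kb of 3 libraries (y axis, CPM per kb) along the domain, with distance from the centre of peak 1 in kb on the x axis; each bar is a peak drawn at its width, and black lines are the approximate gene intervals. In the Fyn interval bars reach 9.79 to 17.1 in the knockout and 3.87 to 8.72 in the control, whereas the bars of the Traf3ip2 interval are of similar height in both groups except at its ends.

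At the other gene, peak 14 (39331841 to 39347380) spans 15540 bp from the approximate start of Traf3ip2 and is the widest and highest member. It measured 303, 320.0 and 309 CPM in knockout libraries 1 to 3, against 268, 236 and 263 CPM in control libraries 1 to 3. The groups did not overlap, but the log2 fold change was small, at 0.28 ± 0.06 (SE). In the control this peak already ranked at percentile 98.9 of all peaks by level and at percentile 92.2 by level per kb. It held 44.7% of the level of the domain in the control and 35.3% in the knockout, so the sum over Traf3ip2 mostly followed this peak.

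The 3 peaks in the middle of the Traf3ip2 interval did not pass the test. Peak 15 (39350579 to 39354068) measured 44.6, 39.9 and 50.03 CPM in the knockout, against 43.8, 33.9 and 41.8 CPM in the control. Peak 16 (39359553 to 39361114) measured 22.3, 15.6 and 20.2 CPM in the knockout, against 16.7, 16.7 and 23.5 CPM in the control. Peak 17 (39365591 to 39372179) measured 77.3, 60.6 and 62.2 CPM in the knockout, against 65.4, 82.6 and 56.9 CPM in the control. The groups overlapped in all 3, and the log2 fold changes were 0.17 ± 0.14, 0.02 ± 0.21 and -0.03 ± 0.11 (SE). A small difference there could not be seen with this spread. The signs of peaks 16 and 17 turned when single libraries were left out.

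Peak 18 (39378589 to 39381081), which crosses the approximate end of Traf3ip2, differed from the 3 before it. It measured 43.2, 42.8 and 34.3 CPM in the knockout, against 25.0, 22.2 and 25.8 CPM in the control, without overlap. Its log2 fold change was 0.71 ± 0.16 (SE), the largest of the Traf3ip2 interval. Per kb it stood at 16.1 CPM in the knockout and 9.76 CPM in the control, the lowest control value of this interval. The next gene in the GRCm38.p6 table that codes for a protein is Rev3l, and the files do not say to which gene this peak belongs.

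The balance between the genes can be read within each library, which needs no scaling between libraries. Fyn peaks held 46.2%, 45.4% and 44.3% of the domain's reads in knockout libraries 1 to 3, against 30.1%, 29.0% and 27.4% in control libraries 1 to 3. The ratio of reads in the 13 Fyn peaks to reads in peak 14 was 1.29 ± 0.0914 in the knockout and 0.648 ± 0.0496 in the control (SD, n = 3 each). The Fyn peaks together thus held more reads than peak 14 in each knockout library and fewer in each control library. This shift restates the unlike fold changes of the Fyn peaks and peak 14, by which the window was chosen, and is no separate support.

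The edges of the window set few peaks in or out. No peak lay within 2304 kb before the window, the nearest being at 36693491 to 36695573. After the window, a peak from 39450810 to 39453200 began 0.81 kb beyond the edge and 69.7 kb from peak 18. It measured 25.8, 27.9 and 25.7 CPM in the knockout, against 25.2, 26.9 and 24.9 CPM in the control, and its log2 fold change was 0.04 ± 0.17 (SE). The members nearest the edges, peaks 1 and 18, had 1.27 and 0.71. All 18 members also overlap one of the gene intervals, so narrowing the window to these removed no peak and tests nothing. Widening it by 100 kb on each side left 15 peaks called higher. The median log2 fold change was then 1.06 in place of 1.10, and the log2 ratio of the summed level 0.60 in place of 0.62.

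Outside the window, chromosome 10 from 30 to 40 Mb was sparse, with 14 peaks, none of them between 32 and 34 Mb, 35 and 36 Mb, or 37 and 39 Mb. Their median log2 fold change was 0.13, with 1 peak called higher and 0 called lower, against 1.20 over the 13 Fyn peaks and 0.17 over the 5 Traf3ip2 peaks. The median was 0.07 without control library 2 and 0.20 without control library 3, and 2 peaks were called higher without knockout library 2 or 3 or control library 3. Their summed level was 413, 400.3 and 383 CPM in knockout libraries, against 318, 359 and 356 CPM in control libraries, a ratio of 1.16. This ratio was close to the 1.18 of the Traf3ip2 interval, and whether the sets differ was not tested. The called peak (31073243 to 31075400) measured 41.9 ± 8.57 CPM in the knockout and 22.3 ± 2.08 CPM in the control (SD, n = 3 each), and a log2 fold change of 0.91 ± 0.16 (SE) was fitted. The adjacent peak (31066441 to 31067914) had the next largest value, 0.56 ± 0.26 (SE), and a peak from 34122945 to 34124967 had 0.30 ± 0.27 (SE). The smallest values were -0.22 ± 0.24 (31032588 to 31033752), -0.10 ± 0.17 (34113391 to 34116036) and 0.04 ± 0.29 (30522342 to 30523962). Each of the 13 Fyn peaks lay above every one of these 14 in log2 fold change. The window was chosen by its fold changes, which favours such a separation, so nothing is read from it. The margin was also small: the lowest Fyn value, that of peak 3, was 0.97 ± 0.30 (SE), beside 0.91 ± 0.16 (SE) for the called peak.

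**Figure D4:**
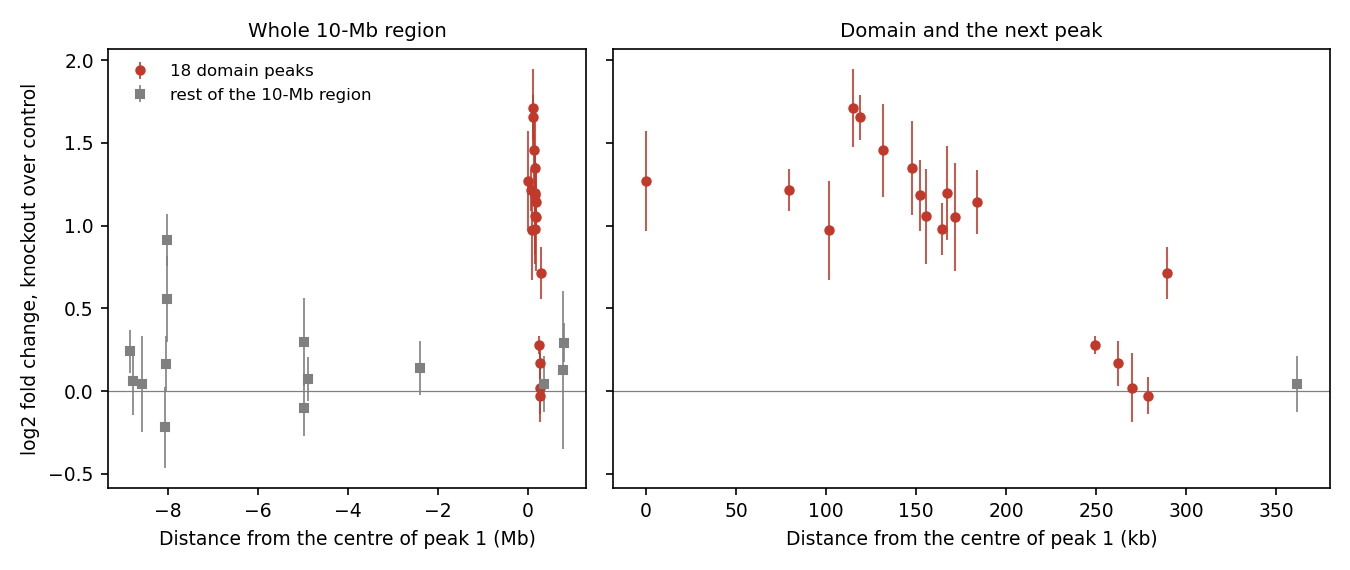
Fitted log2 fold change of H3K27ac, knockout over control (y axis), against distance from the centre of peak 1, for all 32 peaks from 30 to 40 Mb (left, Mb) and for the domain with the next peak (right, kb); bars are standard errors. The 13 Fyn peaks lie between 0.97 and 1.71, and the peaks outside the domain between -0.22 and 0.91.

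Control level per kb moved with the calls across the whole table. Among the 2273 peaks in the lowest 10% by control level per kb, 48.1% were called higher, with a median log2 fold change of 0.55, and 22% had a fold of at least 2. Of the 13 Fyn peaks 12 fell in this class, and 0 of the 5 Traf3ip2 peaks did. In the class next above, 14.3% of peaks were called higher, and in the highest class 5.58%. The mirror class, the lowest 10% by knockout level per kb, held 29.7% called lower. Sorting by one group's level favours peaks that are low in that group, and its part in the folds at Fyn was not tested. No IgG level was subtracted, so how much of the control level at Fyn is background was not measured.

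**Figure D5:**
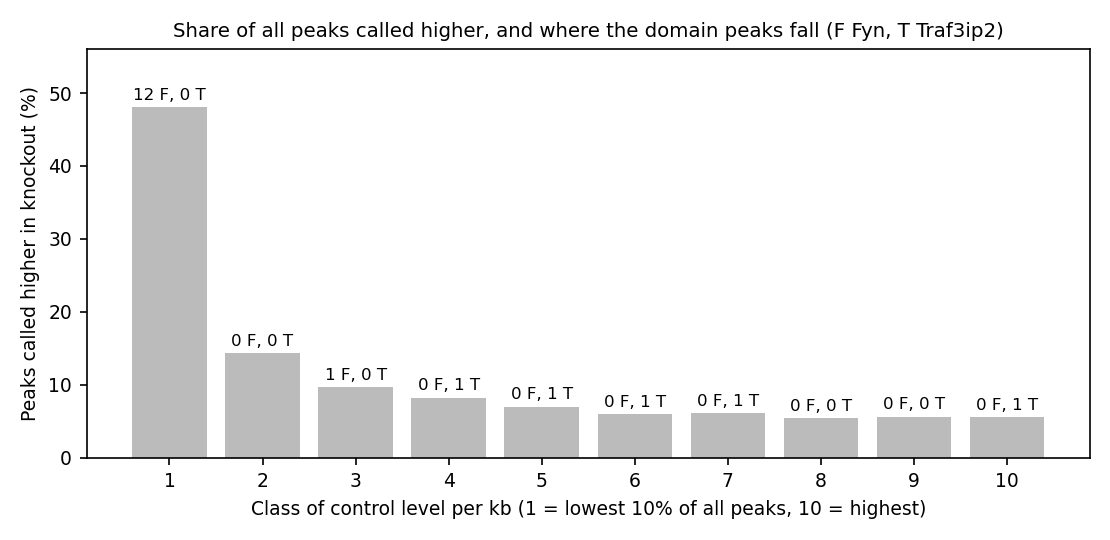
Share of all peaks called higher in the knockout (y axis, %) in 10 classes of control level per kb (x axis, lowest to highest), with the number of Fyn (F) and Traf3ip2 (T) peaks in each class written above the bars. The lowest class has 48.1% called higher and holds 12 Fyn peaks.

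Sequencing depth overlapped between the groups. Reads in peaks numbered 5495414 to 6196455 in knockout and 5141856 to 7026388 in control libraries, of which 4832 to 5329 and 2833 to 3956 fell in the domain. The median coefficient of variation between libraries was 10.96% in the knockout and 18.6% in the control over the Fyn peaks, against 11.3% and 10.9% over all peaks. Chromosome 10 as a whole had a median log2 fold change of 0.03, with 12.4% of its 1053 peaks called higher and 4.56% called lower. Its 1035 peaks outside the window had 11.2% called higher and 4.64% called lower.

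The pattern of the summed domain across the 6 libraries was compared only with outside peaks whose mean level reached the median of all peaks. Among these, the most alike was a peak on chromosome 11 from 88543301 to 88554085 (Pearson's r = 0.999 of log2 CPM). Next came peaks on chromosome 8 from 88881225 to 88887547 (r = 0.999) and from 96634402 to 96639518 (r = 0.998). Their fitted folds were 1.76, 2.31 and 2.63. The 6 points form 2 groups, so r mostly reflects the difference between them, and 906 of the 11359 peaks compared had r above 0.9.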

How the data were processed

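The deposited table holds raw counts, not normalized by the authors, for 1 peak set common to the 6 H3K27ac libraries. Per the submitters' processing notes, the build was mm9 and the tools were bedtools, Bowtie, Picard, SAMtools and SEACR, without versions. The merging of peaks and the counting program are not stated in what was used here. Between 82.8% and 88.9% of counts per library were even, so both mates of a pair may have been counted.

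All 22731 peaks were fitted with edgeR 4.0.16 in R 4.3.3 (TMM, quasi-likelihood, group as the only term, Benjamini-Hochberg over all peaks). The expression filter removed 0 peaks. Levels are TMM-scaled CPM with reads in peaks as library size, so a global change of the mark could not be detected. Standard errors come from the F statistic. The procedure was tested on simulated data in which every peak had the same variability between libraries, so it was not tested on peaks that vary more. No 2 libraries looked like copies: halved counts of libraries of one group gave 1.53 to 1.84 as chi-square per degree of freedom.

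The members, the lists and the classes of level per kb were chosen with earlier results of these data known. Named peaks were those nearest the gene starts and window edges, the 5 largest fold changes, the 3 highest levels, the widest, and those not called. Outside the window they were the 3 largest and 3 smallest fold changes from 30 to 40 Mb. The 3 peaks most alike in pattern were named too, among those with a mean level at or above the median of all peaks. Planned lists of Src family, IL-17 pathway and cell type marker genes were not used, since no mm9 annotation was at hand to place genes on peaks. For the same reason the organoid label was not checked against markers, nor the knockout at Gata6. Traf3ip2 is shown without promoter sequence.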

Additional observations from a re-analysis of the deposited data

How the results depend on the processing

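The alternatives were DESeq2 1.42.0, its size factors in edgeR, total counts, upper-quartile factors, offsets from a loess fit over the mean count (span 0.3), no filter, a stricter filter (neither removed a peak, so they test nothing), each library left out in turn, a replicate block, an adjusted p under 0.01, other windows, and, chosen after seeing the data, halved counts and a fit without chromosome 5. Domain peaks called higher numbered 13 with loess offsets, 14 to 15 with a library left out and 15 in the other refits. The domain's median log2 fold change was 0.98 with loess offsets and 1.04 to 1.17 with a library left out. The summed Fyn level had a log2 ratio of 1.19 with loess offsets and 1.23 to 1.34 with a library left out. The summed Traf3ip2 level moved from 0.24 to 0.29 with loess offsets, beyond the spread of 0.04 between libraries. Outside the window from 30 to 40 Mb the median log2 fold change was 0.09 with loess offsets and 0.07 to 0.20 with a library left out, and 2 peaks in place of 1 were called higher with total counts and with loess offsets, and 1 to 2 with a library left out (2 without knockout library 2 or 3 or control library 3); the cause was not tested. Signs turned in 5 of the named peaks, none of them called: with loess offsets peak 16 had -0.0145, peak 17 0.00024 and the peak at 30522342 had -0.25. With a library left out, peak 16 ranged from -0.089 to 0.21, peak 17 from -0.15 to 0.13, and the peaks at 30522342, 31032588 and 36693491 from -0.15 to 0.26, from -0.40 to 0.024 and from -0.055 to 0.42. Same-numbered libraries of the 2 groups were not shown to be paired: their deviations from the group means correlated at 0.0059 to 0.066, and only 2 of 6 libraries correlated best with their own number. With the number as a replicate block, 15 domain peaks and 2704 peaks of the whole table were called higher and 2409 lower. Searching AGATAG and TGATAG as well, chosen after seeing the data, raised the share of promoters with a longer GATA form to 29.8%, in place of 18.6%. Reads per peak, down to 28 in a Fyn peak, limit what could be seen at the weakest members.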
